A study of Populus tomentosa with 4 samples.

Results

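The 3' arm of miR394 was represented by 2 microRNA names of poplar, ptc-miR394a-3p and ptc-miR394b-3p, among 193 names listed for the comparison of shoot tips with leaves. Members were taken by name alone. Both names carried 1 mature sequence, so they stood for 1 of 107 distinct sequences, and 1 of 52 sequences of known families. Small RNA of Populus tomentosa, Chinese white poplar, was sequenced from healthy shoot tips (named SAM, for shoot apical meristem, in the sample titles) and from the leaves around them, giving 4 libraries, 2 of each tissue. The trees were 20 years old and grew outdoors, with no treatment or genotype named. A shoot tip holds young leaves and stem as well as the meristem. Whether both libraries of a tissue stem from different trees is not stated, so the spread between them may be technical.

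A microRNA precursor folds into a hairpin, and each arm of the hairpin can give a short RNA. For miR394 the 5' arm is the known guide strand, and the 3' arm is its partner in the duplex, usually called the star strand. In Arabidopsis, miR394 is made in the surface layer of the shoot apex and acts on the stem cells below it by repressing LEAF CURLING RESPONSIVENESS (LCR), which encodes an F-box protein. F-box proteins choose the proteins that a ubiquitin ligase marks for breakdown. The 5' arm was not listed in the table used here. That table holds only microRNAs called different between the tissues, so the level of the 5' arm was not analysed here.

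The sequences are shown to make plain that both names are the same molecule and that its seed, bases 2 to 8, in capitals, differs from those of the microRNAs nearest to it in fold change.
miR394a-3p: cUGUUGGUcucucuuuguaa
miR394b-3p: cUGUUGGUcucucuuuguaa
miR171i: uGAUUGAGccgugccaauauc
miR6425e: uUGUCUUCcauggaauaggcag
miR319i: uUGGGCUGaagggagcuccc
miR171a-3p: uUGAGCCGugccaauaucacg
miR159c: aUUGGAGUgaagggagcucga

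The miR394 sequence was 20 nt long and began with C. Of the 52 known sequences, 10 were 20 nt, 34 were 21 nt and 8 were 22 nt long, and 5 began with C against 39 with U. None of the other 106 listed sequences had the same seed or held it at any position. The nearest listed sequence was 9 edits away, the longest run shared with any was 7 bases, and the longest run complementary to any was 8 bases.

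The miR394 3' arm was far more abundant in shoot tips than in leaves in each recovered library. The table gives 1 number per tissue, a normalized read abundance made by the authors from their pair of libraries, on a scale that is not stated. The values of single libraries were recovered from its decimals, since each number was a sum of whole multiples of 2 steps. Library values take the tissue number as the mean of its 2 libraries, and the numbering 1 and 2 is arbitrary. Reads and library values given here are those of the coarsest steps that fit. MiR394b-3p stood at 1137 and 1861 in the shoot tip libraries, from 1445 and 1955 reads, and at 115.6 and 85.0 in the leaf libraries, from 131 and 64 reads. MiR394a-3p stood at 1156 and 1884 in shoot tips, from 1468 and 1980 reads, and at 131 and 100.9 in leaves, from 149 and 76 reads. For both names both shoot tip libraries lay above both leaf libraries, which was the case for 37.1% of the 170 names recovered in both tissues.

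As tissue values, miR394b-3p had 1499 in shoot tips against 100.3 in leaves in the authors' deposited table, with a log2 fold change of 3.87 and an FDR, an adjusted p, of 1.18e-23. MiR394a-3p had 1520 against 116 in the authors' deposited table, with a log2 fold change of 3.68 and an FDR of 4.61e-22. The linear ratios of these values were 14.9 and 13.1. Both names were higher in shoot tips, as were 37.8% of the listed names and 42.1% of the listed sequences. Because every listed microRNA had an FDR below 0.05, passing that threshold does not set miR394 apart. In bulk tissue, more cells that hold the RNA and more RNA per cell cannot be told apart.

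With the coarsest steps, the gap between tissues was larger than the spread within them. Libraries of 1 tissue differed by 1.64-fold in shoot tips and 1.36-fold in leaves for miR394b-3p. The lower shoot tip library was still 9.84-fold above the higher leaf library for that name, with an exact 95% interval of 8.22 to 11.9 that covers counting error only. For miR394a-3p this smallest ratio was 8.79, with an interval of 7.42 to 10.5. The largest ratios were 21.9 and 18.7. With 2 libraries against 2, no exact permutation test could reach the 0.05 threshold, so none was run. Limma on log2(library value + 1), over the 97 sequences recovered in both tissues, gave a log2 difference of 3.86 ± 0.37 (SE) for miR394b-3p with an adjusted p of 0.0021, and of 3.67 ± 0.36 (SE) for miR394a-3p with an adjusted p of 0.0023. It called 42.3% of these sequences higher in shoot tips, and all of them had already been called different by the authors.

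More than 1 pair of steps could explain the numbers (9 pairs in shoot tips, 11 in leaves), and the choice of the coarsest sets the spread between libraries. It also sets the read counts, and with them every counting interval. Under the pair with the widest split, the libraries of miR394b-3p differed by 5.66-fold in shoot tips and by 6.03-fold in leaves. The smallest ratio between tissues then fell to 2.61 for miR394b-3p and 2.30 for miR394a-3p, less than the spread within a tissue. Over all these pairs no shoot tip library of either name fell below 449.8 and no leaf library rose above 198.6. The groups thus did not overlap under any pair. Since both libraries average to the tissue value, the low leaf value sets a ceiling on its libraries under every pair. How many other microRNAs also kept their libraries apart under all pairs was not counted. Limma on the widest split gave 3.91 ± 1.31 (SE) with an adjusted p of 0.0147 for miR394b-3p. For miR394a-3p it gave 3.71 ± 1.31 (SE) with an adjusted p of 0.0201, and it called 28.0% of 93 sequences higher. This fit pooled 1 variance over all sequences, with 186 degrees of freedom against 3.70 with the coarsest steps. Its adjusted p thus treats the sequences as independent, though all come from the same 2 libraries per tissue.

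**Figure D1:**
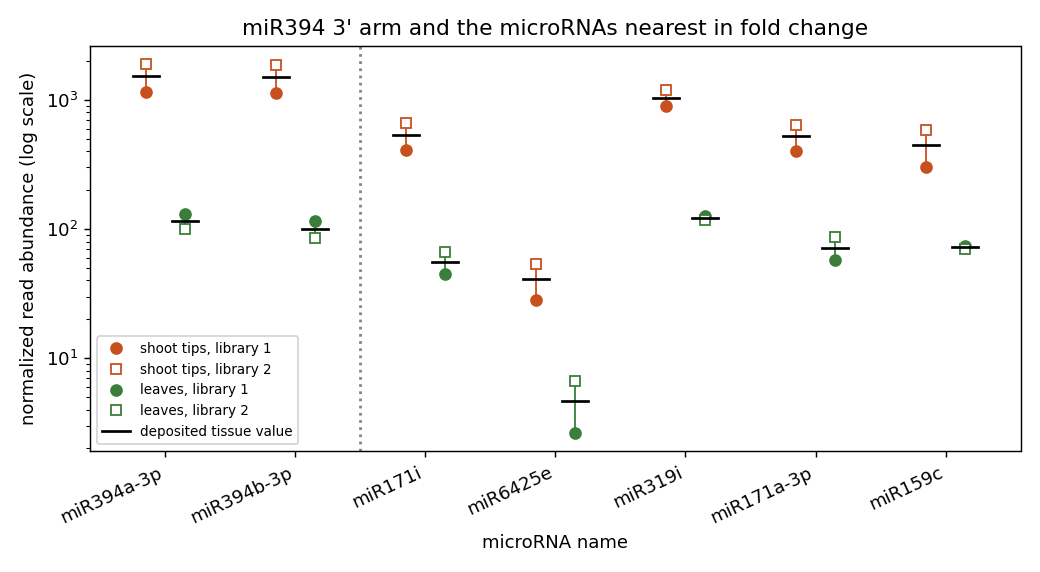
Normalized read abundance on a log axis for both miR394 names (left of the dotted line) and the 5 microRNAs of known families nearest in log2 fold change, with shoot tips in orange and leaves in green; circles and squares are the recovered libraries and black bars the deposited tissue values. For miR394b-3p the shoot tip libraries sit at 1137 and 1861 and the leaf libraries at 115.6 and 85.0.

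Within shoot tips, miR394 followed the other known microRNAs. Its log2 ratio of library 2 over library 1 was 0.71 for both names, while 29 other known sequences with at least 50 reads had a median of 0.58 and 27 of them were above 0. Within leaves the ratio leaned the other way. It was, on the log2 scale, -0.44 for miR394b-3p (95% counting interval -0.90 to -0.0017) and -0.38 for miR394a-3p (-0.80 to 0.027), whereas 36 other known sequences ranged from -0.18 to 1.19 with a median of 0.16. Both values lay below the lowest of these sequences, each of which entered by 1 name. Among names left out, miR319f and miR319g also lay below that lowest value, with leaf libraries at 1009 and 834. The miR394 intervals, from 195 and 225 leaf reads, lay wholly below that median and overlapped the low end of that range. This reading was chosen after the values were seen and rests on the coarsest steps.

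Among known sequences miR394 was relatively abundant in shoot tips and scarce in leaves. It ranked 8 of 52 by its shoot tip level and 37 of 52 by its leaf level. Among the 19 known sequences higher in shoot tips it was placed 5 by level. MiR159d stood just above it and miR1446b just below, with 1868 and 1383 in shoot tips in the authors' deposited table. Recovered shoot tip libraries of these neighbours overlapped with those of miR394, at 1501 and 2235 for miR159d and at 1060 and 1707 for miR1446b. Within each shoot tip library, with the coarsest steps, the order was the same, with miR159d above both miR394 names and miR1446b below them. Whether this order is distinct from the spread between libraries was not tested. In leaves the same neighbours were higher, at 483 and 495 for miR159d and 240 and 371 for miR1446b, above both leaf libraries of miR394.

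By fold change miR394 was placed 4 of those 19, behind miR319a to miR319h and miR159e and ahead of miR171 and miR319i. The nearest in fold change to the members' mean of 3.78 was miR171i, of a family that targets GRAS factors of the shoot meristem, with a log2 fold change of 3.24 in the authors' deposited table. Next came miR6425e at 3.08 and miR319i at 3.07, followed by miR171a-3p at 2.85 and miR159c at 2.60 in the authors' deposited table. Likeness was measured over 2 tissue values alone. The 3 of them closest in shoot tip level were miR319i, miR171i and miR171a-3p, at 1039, 532 and 521 in the authors' table as deposited. MiR319i was the closest in level, with shoot tip libraries at 894 and 1184 and leaf libraries at 126 and 118. Its leaf libraries lay within the range of miR394a-3p, between 100.9 and 131, and its shoot tip libraries reached into that of both miR394 names. MiR6425e had the same direction at a much lower level, with 3 and 5 reads in the leaf libraries.

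**Figure D2:**
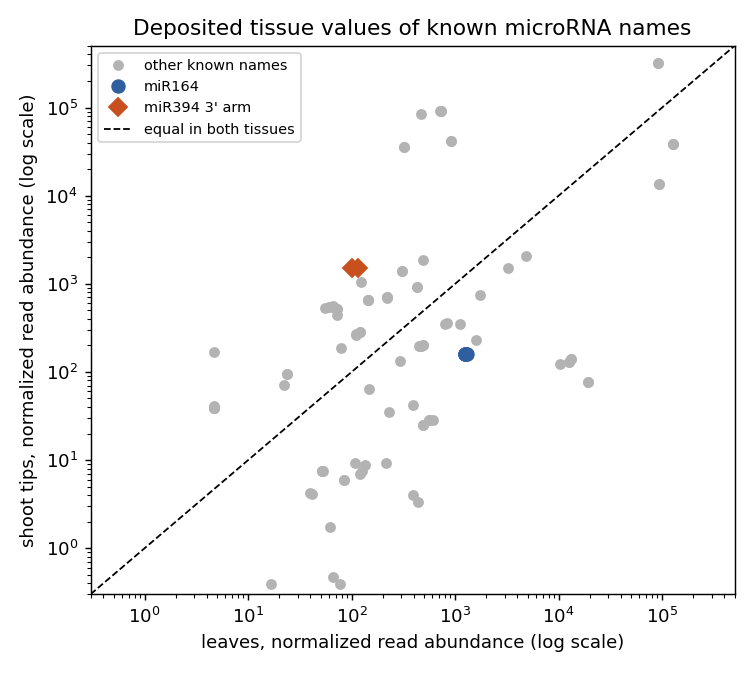
Deposited shoot tip values against leaf values, both on log axes, for the 104 known names above 0 in both tissues; the dashed line marks equal values. The miR394 names (orange diamonds) sit at 1499 and 1520 in shoot tips against 100.3 and 116 in leaves, while the miR164 names (blue) lie on the other side of the line.

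A list of microRNAs of meristem and organ boundary held miR164, miR165, miR166 and miR394, and apart from miR394 the table listed 1 of these families. MiR164, which represses NAC factors that set organ boundaries, had 5 names of 1 sequence, all lower in shoot tips, with a median log2 fold change of -2.96 in the authors' deposited table. Their values were 158 to 160 in shoot tips and 1242 to 1290 in leaves in the authors' deposited table, so miR394 exceeded miR164 in shoot tips and was far below it in leaves. MiR165 and miR166, which act on leaf polarity genes, had 0 listed names. The 7 names of the list had 2 higher and 5 lower, with a median log2 fold change of -2.96, beside -2.75 over all 193 listed names. No messenger RNA was measured, so the tissue labels were not checked against marker genes. For orientation, miR159, miR171 and miR319 were higher in shoot tips in 21 of 22 names (10 sequences), and miR172, miR396, miR398 and miR408 were lower in 17 of 17 (10 sequences). These families were picked with earlier results of these data known, so their directions are no check of the tissues.

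Among all 52 known sequences, 19 (36.5%) were higher in shoot tips. Of 20 known names ending in 3p, 6 were higher, which were 4 of 15 sequences. Of 18 names ending in 5p, 7 were higher, which were 3 of 13 sequences. For 5 precursors both arms were listed (miR398c, miR403c, miR408, miR473a and miR6421), and all 5 had both arms lower in shoot tips. Between the arms of these precursors the log2 fold change differed by 0.40 to 2.21. The table held no precursor with both arms higher.

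The 2 miR394 names differed by a small net number of reads, which was split between tissues unlike the reads of either name. MiR394a-3p exceeded miR394b-3p by 23 and 25 reads in the shoot tip libraries and by 18 and 12 reads in the leaf libraries. These were 1.57% and 1.26% of the miR394a-3p reads in shoot tips (exact 95% intervals 0.996% to 2.34% and 0.819% to 1.86%). In leaves they were 12.1% and 15.8% (7.32% to 18.4% and 8.43% to 26.0%). These intervals take every miR394b-3p read as also counted for miR394a-3p, which is not known. On that assumption the intervals of the tissues did not overlap. As tissue values, which do not depend on the recovery, the excess was 20.9 (1.38%) in shoot tips and 15.9 (13.7%) in leaves, a ratio of 1.32 (log2 0.40), compared with 14.9 for miR394b-3p itself. How reads were assigned to names is not given in the sources used here, so the identity of these reads is not known. Of 20 known sequences whose names had unlike fold changes, miR394 ranked 7 with a gap of 0.19 between its log2 fold changes, and the median gap was 0.03.

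**Figure D3:**
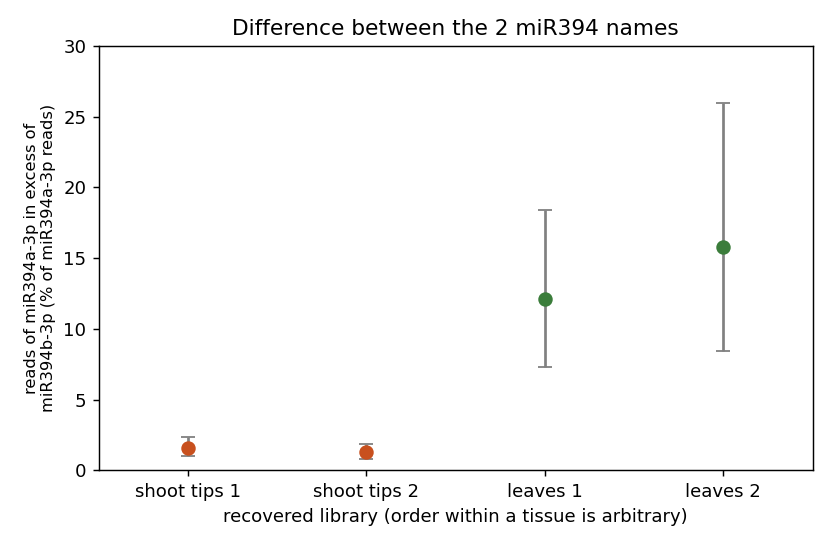
Reads of miR394a-3p in excess of miR394b-3p as a percentage of miR394a-3p reads in each recovered library, with exact 95% binomial intervals for counting error. The intervals assume that every miR394b-3p read is also counted for miR394a-3p. The shoot tip libraries (orange) lie at 1.57% and 1.26% and the leaf libraries (green) at 12.1% and 15.8%.

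Both names were given the same predicted targets. Each had 193 lines in the table, which covered 181 loci, and all 181 were given for both names. These are 1.76% of the 10305 loci predicted for any listed microRNA. No other sequence had more loci, 1 other had as many, and the median over the other sequences was 141. A Swiss-Prot description was attached to 147 of the 181 loci (81.2%, beside 79.2% of all loci), and 34 had none. The 147 carried 119 distinct descriptions, and 22 descriptions were repeated over 50 loci, so related genes enter more than once. Roles named below are those of the described protein in its own species, mostly Arabidopsis, and no transcript of these loci was measured. Being given for miR394 alone held for 108 of the 181 loci, so it sets none of those named below apart.

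None of the 147 described loci was named as the F-box target known for the 5' arm. The 34 without a description could not be checked. Of the 181 loci, 3 were described as F-box proteins (1.66%, beside 114 of all 10305 loci, or 1.11%). They were POPTR_0006s18580, described as F-box protein At3g07870, POPTR_0006s06040, described as F-box/LRR-repeat protein 3, and POPTR_0015s11080, described as F-box/LRR-repeat protein At5g63520. All 3 were given for no other listed microRNA, as were 108 of the 181 loci. LCR is entered in Swiss-Prot as F-box only protein 6, gene At1g27340, and 0 of the 10305 loci carried that name, that gene or the words leaf curling. A search by these words would thus find it for no listed microRNA, so it cannot show that the miR394 3' arm lacks this target. F-box loci were common in the table. At least 1 was predicted for 76 of the 107 sequences, 10 sequences had more than miR394, and the highest number was 6. Other loci with a role in the ubiquitin system numbered 5 (2.76%, beside 2.52% of all loci). They were a pair for the RING-H2 finger protein ATL46, POPTR_0012s07960 and POPTR_0015s08490, the ubiquitin-removing enzymes UBP10 and UBP16, and a BTB/POZ domain protein.

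Kinases and transcription factors made up the largest named classes. Kinase or receptor-like was in the description of 29 loci (16.0%, beside 9.39% of all loci), and 26 of these were worded as protein or receptor kinases; ceramide kinase, sphingosine kinase 1 and guanylate kinase 3 act on small molecules instead. Wall-associated receptor kinase-like proteins, which span the membrane and contact the cell wall, held 9 of them, out of 43 such loci in the table. For 4 of the 9, miR394 was the only listed microRNA, and miR159 was also given for 3. G-type lectin receptor kinases held 4, out of 110 in the table (2.21% of the miR394 loci, beside 1.07% of all loci). Of 14 loci in the table described as the probably inactive leucine-rich repeat receptor-like kinase At5g48380, 3 were predicted for miR394, and all 3 were also predicted for miR171. The kinase PBS1, which is guarded by a disease resistance protein in Arabidopsis, had 2 of its 7 loci here, both given for miR394 alone.

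Transcription factor or zinc finger words marked 15 loci (8.29%, beside 5.45% of all loci). Scarecrow-like protein 18, known as LATERAL SUPPRESSOR and needed for side-shoot meristems in Arabidopsis, had POPTR_0012s02710 and POPTR_0015s01070, and DPB, a partner of E2F factors in the cell cycle, had POPTR_0006s12620 and POPTR_0016s09640. All 4 were given for miR394 alone, as were 108 of the 181 loci. The homeobox protein ATH1 (POPTR_0018s05080), which acts at the base of shoot organs, was shared with 1 other sequence. The remaining 10 were a CYCLOIDEA-type TCP factor, NAC transcription factor 25, RAP2-11 of the ethylene-responsive type, TGA2, VIP1, the trihelix factors GT-2 and GTL2, DOF1.4, a B-box protein and a CCCH protein.

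Fewer loci fell into the other classes. Pentatricopeptide repeat proteins, which process organelle RNA, had 6 loci (3.31%, beside 2.90%), and all 6 were also predicted for miR475. Transporters had 3 (1.66%, beside 4.13%), disease resistance proteins 1 (0.552%, beside 3.26%) and cytochromes P450 0 (beside 0.864%). RNA and chromatin words marked 2 loci, wall words 2, chaperones 1 and translation 1, while 79 described loci matched no class. The words miss some members of a class. Loci without a class included aquaporin PIP1-3, pleiotropic drug resistance protein 1, polygalacturonases, the chromatin assembly subunit FAS2 and LOB domain-containing protein 2. A low count in a class is therefore a count of its words only. Shares over these loci are descriptions with no test, since related loci are predicted together.

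**Figure D4:**
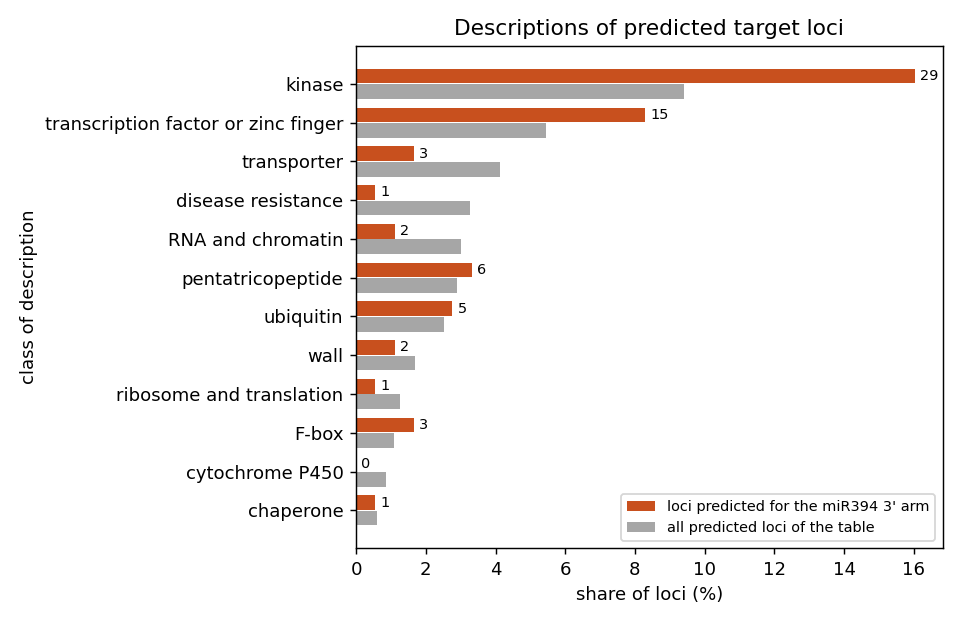
Share of loci by class of description, in percent, for the 181 loci predicted for the miR394 3' arm (orange, with the number of loci) and for all 10305 predicted loci (grey); loci without a class or description are left out. Kinases hold 16.0% against 9.39% and transcription factors or zinc fingers 8.29% against 5.45%.

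Most target loci of miR394 belonged to it alone among the listed microRNAs. No other listed sequence was given for 108 loci, and 73 (40.3%) were shared with at least 1, near the median share of 39.4% over the other sequences. Known microRNAs shared 40 loci and numbered microRNAs, which carry no family name, shared 42. Of the 73 loci, 33 were shared with a sequence higher in shoot tips and 50 with one lower there, and 10 with both. The known families with the most shared loci were miR475 with 6 (3.82% of the loci of miR475 and 3.31% of those of miR394), miR171 with 5 (1.38% and 2.76%) and miR473 with 5 (1.81% and 2.76%). The miR171 loci were the 3 inactive receptor-like kinases and both loci for MAG2-interacting protein 2, a factor of transport from the endoplasmic reticulum. MiR171 was higher in shoot tips in the names concerned, as miR394 was, while miR475 and miR473 were lower.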

How the data were processed

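Small RNA libraries of shoot tips and leaves were made from total RNA with Illumina protocols, per the labels' protocols; how they were trimmed, aligned, counted, scaled and tested, with which genome build, and how targets were predicted is not given in the sources used here. A single deposited table gives 1 signal per tissue and name, the authors' log2 fold change (shoot tips over leaves) and their FDR, an adjusted p-value. Of its 27252 lines, 1215 repeated another, and each name and locus was read once. No value per library is given, so the authors' log2 fold change and FDR are the main values. Limma on log2(value + 1) of the recovered libraries, 1 name per sequence, was added after seeing the data; it lacks sequences not recovered or not called by the authors.

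Reads per library were recovered for signals up to 5000. Each was modelled as whole reads of 2 libraries, with the worth of 1 read sought between 0.15 and 1.5 for either, and 100 of 100 distinct shoot tip values and 105 of 106 leaf values had 1 solution. On reads simulated with the coarsest steps, 96 of 98 shoot tip values and 104 of 104 leaf values were solved, all rightly. The steps put in came out as the coarsest of 9 fitting pairs in shoot tips and of 8 in leaves. Only the coarsest steps were put in, and whether the real steps are the coarsest was not tested. With the coarsest steps, on the scale of a library, 1 read was worth 0.787 and 0.952 in the shoot tip libraries and 0.882 and 1.33 in the leaf libraries. If the scale were RPM, depths would be 1270332, 1050682, 1133180 and 752959 reads. Intervals are exact binomial, use the read counts of the coarsest steps and cover counting error only.

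The members and lists were chosen with earlier results of these data known. MicroRNAs alike in pattern were the 5 distinct known sequences nearest in log2 fold change. Loci were classed by words of their description; named loci were up to 30 of the F-box, ubiquitin, transcription factor, kinase and transporter classes, and descriptions repeated over loci. Others were chosen after their descriptions were seen. None of the 181 loci matched the P. tomentosa gene table (0 matches), so no coordinates are given. Python 3.11.15, numpy 2.4.6, scipy 1.17.1, pandas 2.3.3 matplotlib 3.10.9 and limma 3.58.1 in R 4.3.3 were used.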

Additional observations from a re-analysis of the deposited data

How the results depend on the processing

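Both miR394 names stayed higher in shoot tips under every alternative run. With so wide a gap and no overlap of libraries, pseudocounts or leaving out 1 library could not have reversed this direction. Rescaling without families higher in shoot tips could only raise the ratio. These runs thus show how far the size of the difference moved. The log2 ratio of the tissue values, without or with a pseudocount of 1 or 10, stayed within counting error of the authors' log2 fold change, at 3.77 to 3.90 for miR394b-3p and 3.60 to 3.71 for miR394a-3p. Rescaling without miR159 and miR319, with the values taken as RPM and each sequence counted once at its highest value, adds 0.73 to every log2 ratio and gave 4.63 for miR394b-3p and 4.44 for miR394a-3p. Leaving out 1 recovered library in turn gave 3.503 to 4.21 for miR394b-3p and 3.31 to 4.02 for miR394a-3p. The number of loci was 181 whether given for either or both names, and 3 F-box loci were found with narrow and broader words. Loci given for miR394 alone had a description in 81.5%. Counts by transcript were not run, since the table gives loci only. These alternatives were added after seeing the data. Limma on the recovered libraries gave log2 differences of 3.86 and 3.67 with the coarsest steps, for miR394b-3p and miR394a-3p in turn. With the widest split they were 3.91 and 3.71. Each limma fit gave an adjusted p below 0.05, but with the widest split it rests on 1 variance pooled over all sequences. The lowest shoot tip library over the highest leaf library fell from 9.84 to 2.61 for miR394b-3p and from 8.79 to 2.30 for miR394a-3p over all fitting step pairs. No paired analysis was possible because the numbering of the recovered libraries is arbitrary and cannot be tied to the replicates of the labels. The leaf values, at 64 to 149 reads per library, limit the precision of each ratio.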

Other observations

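Some predicted target loci of the miR394 3' arm were described as proteins linked to cuticle lipids or to growth in other plants. They were picked after their descriptions were seen, so their number is no evidence of a theme. Proteins linked to cuticle lipids, directly or by name, included ECERIFERUM 7, 2 of 4 loci for the acyltransferase GPAT6, and the 3-ketoacyl-CoA synthases 1 and 12. They also included 2 of 6 loci for the exporter ABCG11. Of these 7 loci, out of 26 in the table for ECERIFERUM proteins, 3-ketoacyl-CoA synthases, GPAT6 and ABCG11, 2 were given for miR394 alone (ECERIFERUM 7 and synthase 12), and the other 5 were shared with miR6421, miR1444 or miR167, which were lower in shoot tips. Proteins with roles in growth or development in other plants included the maize protein terminal ear1, GRF1-interacting factor 1 and OBERON 3. The chromatin assembly subunit FAS2 and LATERAL ROOT PRIMORDIUM 1 were others. These 5 loci were given for miR394 alone, as were 108 of its 181 loci. All 3 loci of the table described as SAR1A, a GTPase of vesicle budding, were predicted for miR394, 2 of them for miR394 alone.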
